A study of Drosophila melanogaster with 9 samples.

Results

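Transcripts that differ from control in the same direction when muscle overexpresses either Foxo or Mnt were sought by setting both overexpression groups together against control. The comparison covers all 9 arrays of the series, with 3 Foxo and 3 Mnt arrays on one side and 3 control arrays on the other. Genes were then sorted by whether the Foxo and the Mnt differences had the same sign, which held for 7723 of the 11982 genes tested, or 64.5%. Of these, 3080 genes (25.7%) were higher in both groups and 4643 (38.7%) lower in both. Both differences use the same 3 controls, so a high or low control mean moves them together and nothing is read from these shares.

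All samples were skeletal muscle of male *Drosophila melanogaster*, collected within 24 hours of eclosion, kept 20 to a vial at 25 °C and hybridised to Affymetrix Drosophila Genome 2.0 arrays. The Foxo group carried UAS-Foxo and the Mnt group UAS-Mnt, which are transgenes that need a Gal4 driver, and the series title describes the overexpression as muscle-specific. The control group is labelled only as control. The labels and title name no driver, full control genotype, age at dissection or way of separating muscle from other tissue. RNA of each group came from at least 15 flies, with 3 independent biological replicates. The values are RMA signals on the log2 scale, where a difference of 1 is a doubling. The array medians lay between 5.70 and 5.95, and the number of 3 arrays per group limits the precision.

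FOXO is a transcription factor that insulin signalling keeps out of the nucleus and that turns on genes of low nutrient states. Mnt is a transcriptional repressor that pairs with Max at E-box sites and so opposes Myc, the main activator of ribosome production and growth in the fly. Both factors are known to restrain growth, and ribosome biogenesis is a process on which insulin signalling and Myc converge.

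The samples were checked against muscle markers and against transcripts of other tissues. Of 16 muscle markers, 13 were measured and lay between 11.17 and 14.72 in every array, at or above the 96th percentile of all genes. The mean signal of 15 testis markers ran from 5.96 to 9.27 over the overexpression arrays (median 8.47) and from 5.90 to 8.26 over the controls (median 7.34). It was lowest in control replicate 3 and Mnt replicate 2. The mean of 11 accessory gland markers was 9.76 in Foxo replicate 3 and at most 5.37 elsewhere. The mean of 8 photoreceptor and neuron markers lay between 5.93 and 6.47 in the overexpression arrays and between 6.51 and 6.54 in the controls, so these groups did not overlap. The part of these tissues in the differences below was not tested beyond the fits named beside them, and in such bulk samples fewer cells of a type and less RNA per cell cannot be told apart.

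The transgenes were not raised equally. The Mnt signal was 9.85, 11.69 and 11.71 in the Mnt arrays, against 8.41, 8.57 and 8.45 in the controls. The foxo signal was 11.95, 9.52 and 10.22 in the Foxo arrays, against 9.42, 9.50 and 9.05 in the controls, so the array labelled Foxo 2 lay barely above the highest control. The comparison of all 6 arrays was therefore repeated without that array and Mnt replicate 1.

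No gene passed the test of both groups together against control. With limma's moderated test on all 9 arrays and Benjamini-Hochberg adjustment over the 11982 genes, 0 genes had an adjusted p under 0.05 (0% of genes), and the lowest adjusted p was 0.0508. Each group alone against control gave 12 genes with an adjusted p under 0.05 in Foxo (0.1%) and 0 in Mnt (0%), and 17.8% and 3.54% of genes at an unadjusted p under 0.05. Foxo minus Mnt gave 16 genes with an adjusted p under 0.05 (0.134%) and 13.4% of genes at an unadjusted p under 0.05. For both groups together, at an unadjusted p under 0.05, there were 831 genes (6.94%), of which 294 were higher (2.45%) and 537 lower (4.48%) in the overexpression arrays. Among all genes 59.2% had a negative difference and the median difference was -0.03, so the 831 genes stand beside a lean of all genes to lower values. Centring each array on its own median raised the share of negative differences to 77.5% of all genes and gave 186 higher and 809 lower genes at that unadjusted threshold. The count at an unadjusted p under 0.05 was 1340 without Foxo replicate 1, 1310 without Mnt replicate 2, 1342 without control replicate 1, 526 without Mnt replicate 3, 504 without control replicate 2 and 359 without control replicate 3.

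In 310 genes (2.59%) the 6 overexpression arrays did not overlap with the 3 controls. Such a separation fixes the same sign in both groups, so nothing is read from their shared direction. The 6 arrays lay wholly below the controls in 257 genes (2.14%) and wholly above them in 53 genes (0.442%). An unadjusted p under 0.05 was found in 245 of them (2.04% of all genes), 202 lower (1.69%) and 43 higher (0.359%). These differences were small, with a median size of 0.21 on the log2 scale, or 1.16-fold, and 122 of the 310 genes were among the dimmest 40% of genes. Of the 310 genes, 212 had the larger difference in Foxo muscle and 98 in Mnt muscle. A stricter reading, an unadjusted p under 0.05 for Foxo and also for Mnt with one sign, held for 117 genes (0.976%), 23 higher (0.192%) and 94 lower (0.785%). Removing an array makes separation easier. The lower and higher counts became 957 and 341 without control replicate 1, 518 and 202 without control replicate 2, and 361 and 173 without control replicate 3. Among the overexpression arrays they became 373 and 106 without Foxo replicate 1, 314 and 80 without Foxo replicate 2, 566 and 131 without Mnt replicate 1, 480 and 141 without Mnt replicate 2, and 273 and 93 without Mnt replicate 3.

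CG5569 and Mal-A5 stood closest to the threshold, and both were lower by about the same amount in each overexpression group. CG5569 has the older name dNDUFAF3 in the gene annotation used, and its human namesake NDUFAF3 helps assemble respiratory complex I. Its signal was 10.04, 10.15 and 10.06 in Foxo muscle and 10.12, 10.10 and 9.98 in Mnt muscle, against 10.55, 10.58 and 10.58 in the controls. All 6 overexpression arrays lay below all 3 controls, and the gap of 0.40 to the lowest control was wider than the range within any group. The log2 difference of both groups together was -0.50 ± 0.05 (SE, 6 against 3 arrays, limma adjusted p = 0.0508), a 1.41-fold lower level.

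Mal-A5, a maltase that splits sugars into glucose, showed the same picture at a higher signal. It lay at 11.84, 11.87 and 11.97 in the Foxo arrays and at 11.90, 11.94 and 11.88 in the Mnt arrays, against 12.37, 12.33 and 12.49 in the controls. All 6 overexpression arrays were below all 3 controls, with a gap of 0.36. The log2 difference was -0.49 ± 0.05 (SE, limma adjusted p = 0.0508).

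For neither gene did the direct test of Foxo against Mnt pass, which does not show that the groups are alike. The Foxo minus Mnt difference was 0.02 ± 0.06 for CG5569 (limma adjusted p = 0.901) and -0.01 ± 0.06 for Mal-A5 (adjusted p = 0.928). Both are read by a single probe set. The adjusted p fell below 0.05 for both genes in 5 of 23 alternative settings, among them a fit of the 6 arrays as 1 group (0.0197 for both), and stayed above it in the other 18. With any 1 array left out it ran from 0.0898 to 0.375 for CG5569 and from 0.0894 to 0.375 for Mal-A5. The log2 difference stayed between -0.58 and -0.47 for CG5569 and between -0.58 and -0.45 for Mal-A5 in all 23. Several of these settings, such as the fit as 1 group and the filters of dim genes, cannot move it. The others reuse the same arrays, so nothing is read from its stability. With the testis score in the fit the differences were -0.48 and -0.46, and each adjusted p was 0.173.

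**Figure D1:**
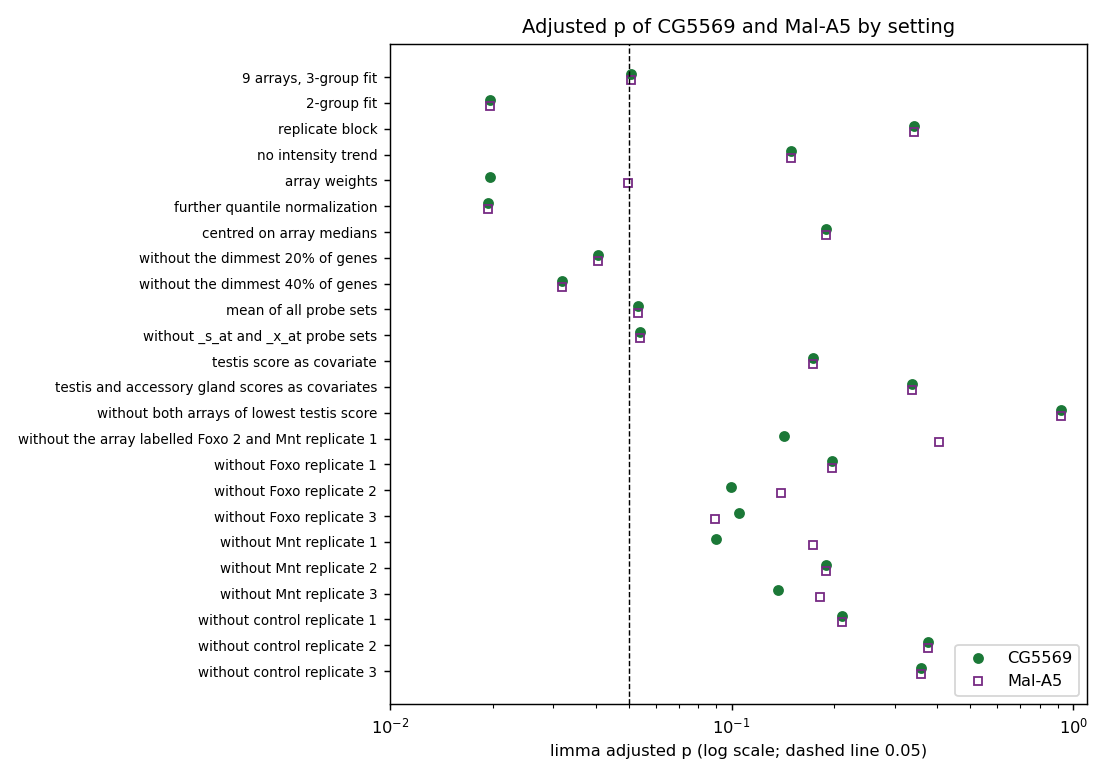
Adjusted p (horizontal axis, log scale) of CG5569 (filled circles) and Mal-A5 (open squares) in the fit of all 9 arrays and in each alternative setting (rows), with a dashed line at 0.05. Both genes lie at 0.0508 in the top row and left of the line in 5 further settings.

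Most other maltase and sugar digestion genes had differences of the opposite sign to Mal-A5. Of the 15 measured genes of that list 12 had a higher mean in the overexpression arrays, where 40.8% of all genes did. Only Mal-A5 and Mal-B2 of the list had an unadjusted p under 0.05. Mal-B2 lay at 10.46, 9.41 and 10.13 in the Foxo arrays and at 9.39, 9.92 and 9.19 in the Mnt arrays, against 8.98, 8.88 and 9.06 in the controls. Its 6 overexpression arrays were all higher than the controls but widely spread (log2 difference 0.78 ± 0.23, SE, limma adjusted p = 0.610). The median log2 difference of the list was 0.57 in Foxo and -0.16 in Mnt.

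Among genes with no overlap, the lower transcripts of smallest p were next examined one by one. The rule that named them asked for separated groups, so the separation itself is a description. lama, a gene of undifferentiated neural and glial precursors, lay at 10.37, 10.56 and 10.38 in the Foxo arrays and at 11.15, 11.15 and 11.08 in the Mnt arrays, against 11.23, 11.28 and 11.45 in the controls. Its Mnt arrays sat just below the controls and its Foxo arrays far below (both groups together -0.54 ± 0.07, limma adjusted p = 0.124). Here the groups differed from each other, by -0.69 ± 0.08 for Foxo minus Mnt (limma adjusted p = 0.0328).

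CG4461, a small heat shock protein of the alpha-crystallin family, was among the brightest of these transcripts. It had signals of 13.18, 13.36 and 13.23 in Foxo muscle and 13.59, 13.50 and 13.57 in Mnt muscle, against 13.75, 13.77 and 13.91 in the controls. The groups were ordered Foxo, Mnt, control from low to high without overlap (both together -0.40 ± 0.06, SE, limma adjusted p = 0.242). CG34166, a gene with no assigned name, showed the same order, with 11.35, 11.27 and 11.46 in Foxo muscle and 11.58, 11.86 and 11.77 in Mnt muscle, against 11.89, 12.07 and 12.12 in the controls. Its highest Mnt array came within 0.03 of the lowest control (-0.48 ± 0.08, limma adjusted p = 0.378).

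TFAM, the protein that packages and helps transcribe mitochondrial DNA, differed by less but with tight replicates. It lay at 9.47, 9.50 and 9.50 in the Foxo arrays and at 9.40, 9.41 and 9.38 in the Mnt arrays, against 9.65, 9.70 and 9.63 in the controls. The Mnt arrays were the lowest here, and both groups together differed by -0.22 ± 0.04 (SE, limma adjusted p = 0.412). eas, the ethanolamine kinase of phospholipid synthesis, had 9.94, 10.01 and 10.01 in Foxo muscle and 10.11, 10.12 and 10.12 in Mnt muscle, against 10.27, 10.28 and 10.26 in the controls. Its replicates agreed within 0.07 in each group, and the difference was -0.22 ± 0.04 (adjusted p = 0.378). CG9776 had 8.58, 8.55 and 8.71 in the Foxo arrays and 8.85 in each Mnt array, against 8.98, 9.09 and 9.02 in the controls, again with the Foxo arrays lowest (-0.30 ± 0.05, adjusted p = 0.412).

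Several further separated lower genes act in heme, iron-sulfur and mitochondrial gene expression, and they are named after their values were seen. MagR, an iron-sulfur cluster assembly factor, lay at 10.73, 11 and 10.95 in the Foxo arrays and at 11.11, 10.88 and 10.91 in the Mnt arrays, against 11.22, 11.26 and 11.37 in the controls. Urod, an enzyme of heme synthesis, lay at 9.48, 9.45 and 9.55 in the Foxo arrays and at 9.73, 9.79 and 9.69 in the Mnt arrays, against 9.79, 9.87 and 9.85 in the controls. Cox10, which makes the heme A of cytochrome oxidase, lay at 10.95, 11.01 and 10.94 in the Foxo arrays and at 11.08, 10.99 and 10.92 in the Mnt arrays, against 11.09, 11.26 and 11.35 in the controls. The gap between the groups was 0.11 for MagR and 0 after rounding to 2 decimals for Urod and Cox10, and each had a limma adjusted p of 0.610. Also below the controls were Cchl, which attaches heme to cytochrome c, the ferredoxin Fdx2, Roe1 of the mitochondrial import motor and the mitochondrial RNA polymerase PolrMT, with unadjusted p of 0.00397, 0.00524, 0.00286 and 0.0230. Other mitochondrial genes lay above the controls instead, such as the membrane insertase OXA1L, the protease Afg3l2 and the tRNA amidotransferase subunit GatB, with unadjusted p of 0.00464, 0.00717 and 0.0133. These genes were picked from the separated ones, so nothing is read from their sharing a direction.

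Of the 53 genes above the controls, Strn-Mlck had the widest gap among those the rule named. It encodes the giant muscle kinase Stretchin and lay at 13.05, 12.70 and 12.61 in the Foxo arrays and at 12.68, 12.80 and 12.69 in the Mnt arrays, against 12.27, 12.20 and 12.33 in the controls. All 6 overexpression arrays were higher by at least 0.28, and the difference was 0.48 ± 0.09 (SE, limma adjusted p = 0.610). This was seen by only 1 of its 3 probe sets. The 2 others, of lower signal, gave differences of -0.15 and -0.13 for both groups together, and each of them overlapped between the groups. The mean of all its probe sets gave 0.07.

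CG32195, a gene with no assigned name, had the larger difference in the Mnt arrays. It lay at 8.38, 8.35 and 8.25 in the Foxo arrays and at 8.54, 8.67 and 8.78 in the Mnt arrays, against 8, 8.15 and 7.83 in the controls. The lowest overexpression array was 0.10 above the highest control (0.50 ± 0.08, SE, limma adjusted p = 0.378). GstD9, a glutathione S-transferase of detoxification, leaned the same way, with 10.07, 10.29 and 10.27 in Foxo muscle and 10.93, 10.49 and 10.58 in Mnt muscle, against 10.02, 10 and 10.04 in the controls. One Foxo array came within 0.03 of the controls (0.42 ± 0.10, adjusted p = 0.610).

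chk, the monocarboxylate transporter Chaski, and Ubi-p63E, a polyubiquitin gene, had their larger difference in opposite groups. chk lay at 11.28, 11.17 and 11.19 in the Foxo arrays and at 11.47, 11.46 and 11.62 in the Mnt arrays, against 11.11, 11.16 and 11.06 in the controls. Ubi-p63E lay at 13.05, 12.97 and 12.96 in the Foxo arrays and at 12.71, 12.76 and 12.76 in the Mnt arrays, against 12.69, 12.68 and 12.56 in the controls. The differences of chk were thus mostly those of the Mnt arrays (0.41 ± 0.06, against 0.10 ± 0.06 in Foxo) and those of Ubi-p63E mostly those of the Foxo arrays (0.35 ± 0.05, against 0.10 ± 0.05 in Mnt). Neither Foxo minus Mnt difference passed (limma adjusted p = 0.144 and 0.154). The second probe set of chk had signals of at most 4.58 and overlapped between the groups.

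The remaining named higher genes had less unequal differences. Nop17l, related to a factor that assembles small nucleolar RNA particles in yeast, lay at 8.73, 8.83 and 8.90 in the Foxo arrays and at 8.63, 8.67 and 8.80 in the Mnt arrays, against 8.5, 8.52 and 8.43 in the controls. CG18324 lay at 9.33, 9.46 and 9.25 in the Foxo arrays and at 9.19, 9.32 and 9.27 in the Mnt arrays, against 9.05, 8.99 and 9.03 in the controls. The tetraspanin Tsp42Eg lay at 9.57, 9.38 and 9.22 in the Foxo arrays and at 9.11, 9.23 and 9.18 in the Mnt arrays, against 8.93, 9.03 and 8.89 in the controls. The differences of both groups together were 0.28 ± 0.06, 0.28 ± 0.06 and 0.33 ± 0.08 for Nop17l, CG18324 and Tsp42Eg, each with a limma adjusted p of 0.610.

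**Figure D2:**
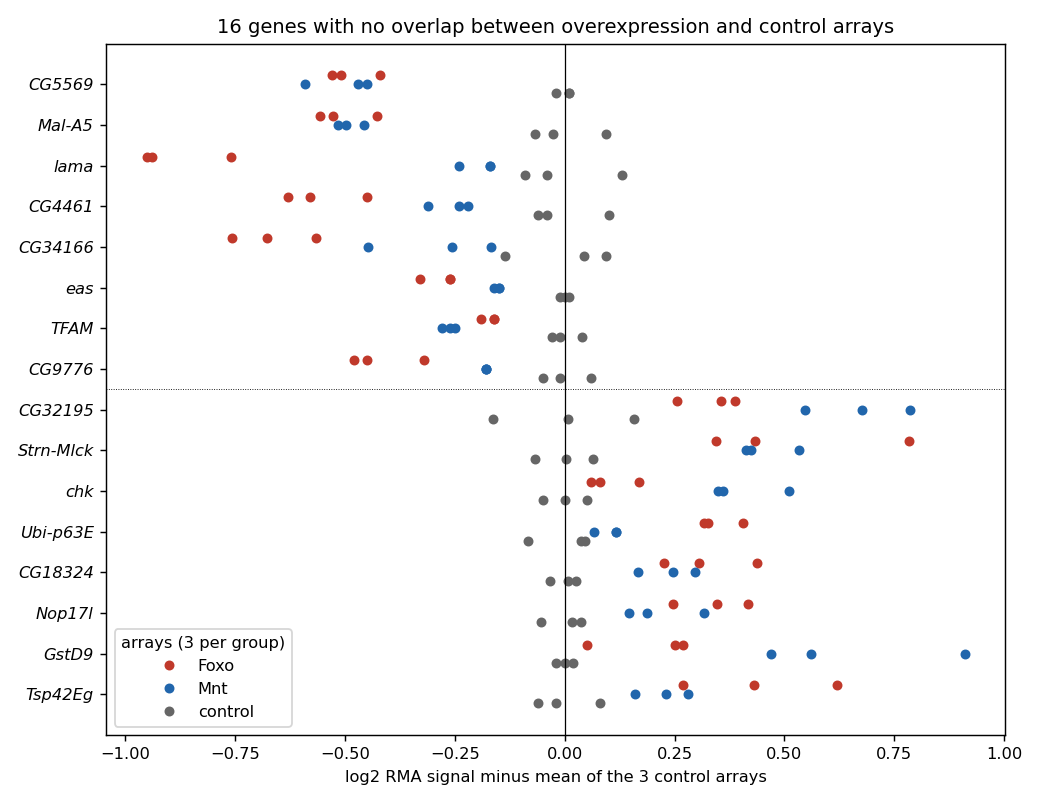
Signal of each array minus the mean of the 3 controls (horizontal axis, log2) for the 8 lower and 8 higher genes of smallest p without overlap, with 3 Foxo, 3 Mnt and 3 control points per gene. CG5569 and Mal-A5 have Foxo and Mnt points at about the same distance from control, while the Foxo points of lama lie much farther out than its Mnt points.

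**Figure D3:**
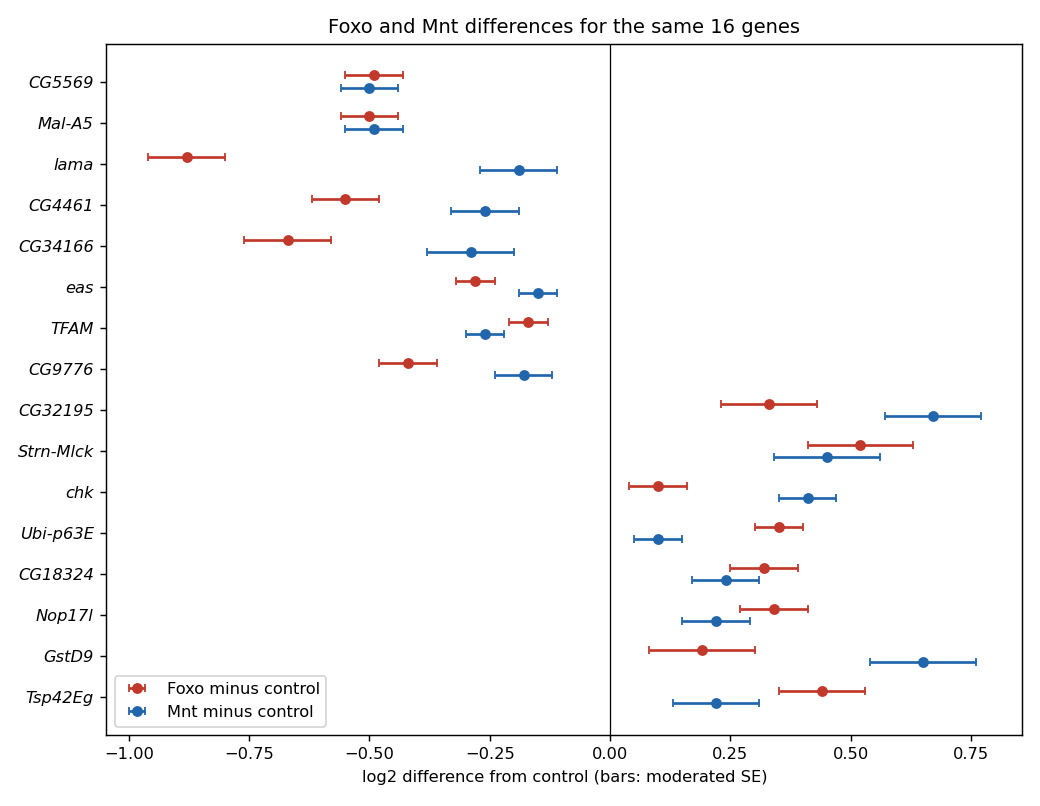
Log2 difference from control (horizontal axis) of the same 16 genes in the Foxo and the Mnt arrays, with bars for the moderated SE. Both differences use the same 3 controls, and of these genes lama has a Foxo minus Mnt difference that passed (-0.69).

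Large separated differences were few. Of the 310 genes 7 were past 1.5-fold, which 773 of all genes were (6.45%), with 6 higher and 1 lower. Besides Mal-B2 the higher ones were GstS1, SmydA-7, CG9692, Hsp27 and Mec2, and the lower one was jim, a zinc finger gene. GstS1, a glutathione S-transferase of flight muscle, lay at 13.52, 12.72 and 13.01 in the Foxo arrays and at 12.31, 13.16 and 12.68 in the Mnt arrays, against 11.95, 12.31 and 12.21 in the controls. Its lowest Mnt array equalled the highest control to 2 decimals (0.74 ± 0.22, SE, limma adjusted p = 0.610). Hsp27, a small heat shock protein, lay at 6.18, 7.02 and 7.22 in the Foxo arrays and at 6.07, 6.12 and 6.90 in the Mnt arrays, against 6.06, 6.04 and 5.85 in the controls. Its difference is opposite in sign to that of CG4461 and 3 of the 6 arrays lay at 6.18 or below.

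Genes of ribosome production were described as lists, by counts beside those of all genes. In the ribosome biogenesis list 55 of 56 measured genes had a lower mean in the overexpression arrays, and 49 were lower in both groups, with 0 higher in both. Over all genes 59.2% were lower, and 38.7% were lower in both groups. The median log2 difference of the list was -0.11 for both groups together, -0.12 in Foxo and -0.12 in Mnt, against -0.03, -0.06 and 0 over all genes. With each array centred on its median the list's median was -0.20 for both groups together, and that of all genes -0.11. An unadjusted p under 0.05 was found for 10 of the 56 (17.9%), all of them lower, against 6.94% of all genes. None had an adjusted p under 0.05.

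In this list 6 members, Tsr1, Rtc1, Fib, bys, Rrp4 and CG12301, lay wholly below the controls, as did 2.14% of all genes. Tsr1, which matures the small ribosomal subunit, had 8.11, 8.06 and 8.19 in Foxo muscle and 8.08, 8.01 and 7.85 in Mnt muscle, against 8.25, 8.21 and 8.25 in the controls. Fib, the fibrillarin that methylates ribosomal RNA in the nucleolus, had 7.62, 7.53 and 7.52 in Foxo muscle and 7.66, 7.58 and 7.63 in Mnt muscle, against 7.70, 7.73 and 7.77 in the controls. bys, the nucleolar protein bystin, had 7.79, 7.75 and 7.77 in Foxo muscle and 7.81, 7.78 and 7.53 in Mnt muscle, against 7.92, 7.86 and 7.98 in the controls. The differences of Tsr1, Fib and bys were -0.19 ± 0.06, -0.14 ± 0.06 and -0.18 ± 0.08 (SE), so the shifts were small and each adjusted p was 0.610.

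The mean signal of the list was also compared by array. It was 7.06, 7.11 and 7.15 in Foxo muscle and 7.27, 7.11 and 7.05 in Mnt muscle, against 7.21, 7.26 and 7.31 in the controls. Mnt replicate 1 lay within the controls and the other 5 lay below them. Its Mnt signal was the weakest of the Mnt arrays. The array labelled Foxo 2, whose foxo signal was near the controls, had a list mean of 7.11 and lay below them. A link between transgene signal and this mean was not tested. The Foxo means also hold Noc2, a nucleolar factor named after its values were seen. It was at 6.88, 6.87 and 9.23 in the Foxo arrays and at 9.74, 9.69 and 9.73 in the Mnt arrays, against 9.53, 9.66 and 9.60 in the controls. Foxo replicates 1 and 2 were thus far lower than every other array for this gene, and its Mnt arrays were above the controls. In the alternatives that keep all 56 genes, 51 to 56 of them were lower, and the lowest count came without both arrays of lowest testis score and without control replicate 3. With the testis score in the fit 54 of 56 were lower.

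**Figure D4:**
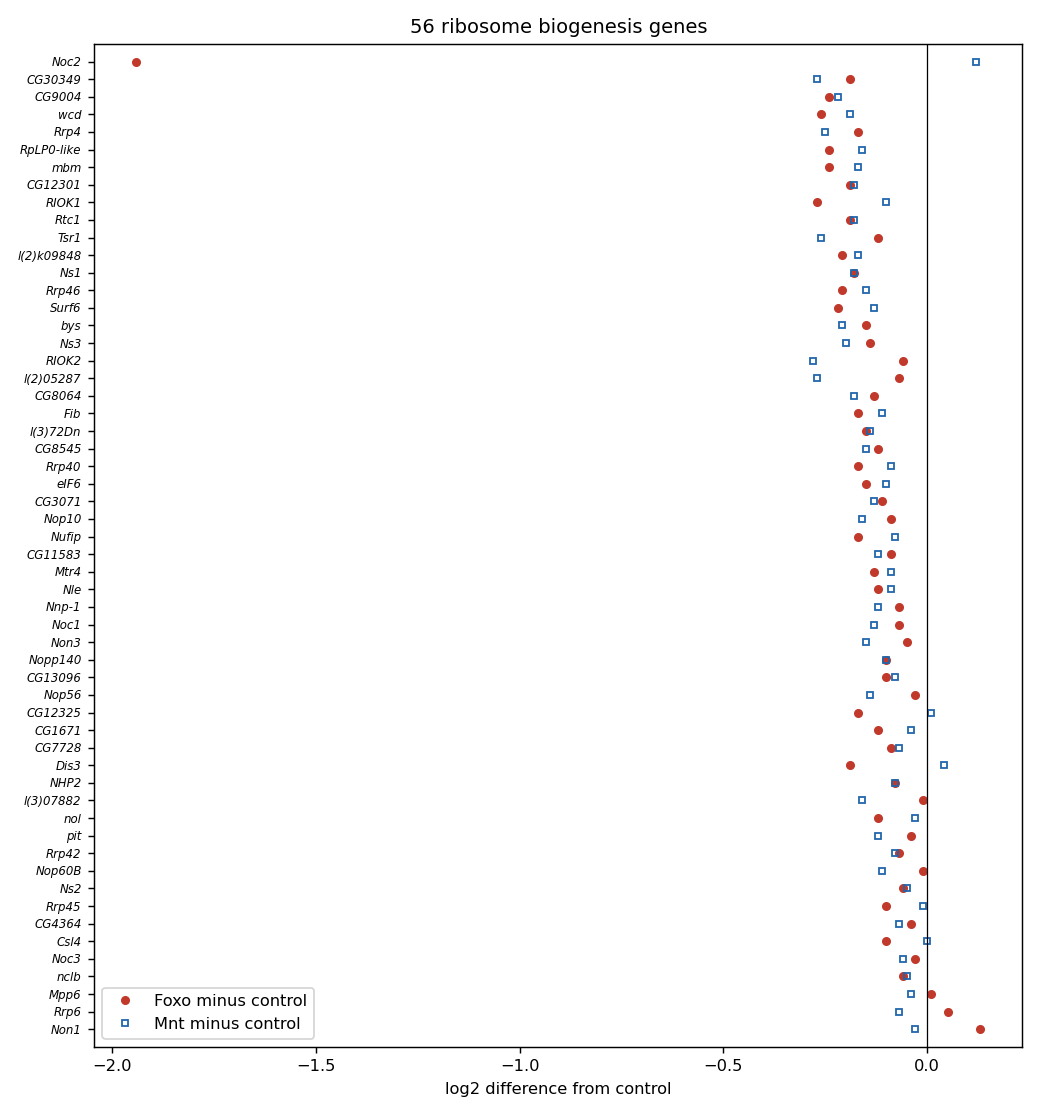
Log2 difference from control (horizontal axis) of the 56 measured ribosome biogenesis genes (rows) in the Foxo arrays (filled circles) and the Mnt arrays (open squares). Most points lie between -0.3 and 0, and Noc2 stands apart at -1.94 in Foxo and 0.12 in Mnt.

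RNA polymerases I and III, which make ribosomal and transfer RNA, leaned the same way. Of 23 measured genes 21 were lower in both groups, as were 38.7% of all genes. The median difference was -0.08 for both together, -0.09 in Foxo and -0.10 in Mnt. The list mean overlapped between groups. It was 7.48, 7.6 and 7.51 in Foxo muscle and 7.6, 7.49 and 7.43 in Mnt muscle, against 7.56, 7.62 and 7.66 in the controls. Polr2E, a subunit that all 3 nuclear RNA polymerases share, was the one member with an unadjusted p under 0.05 (4.35%, against 6.94% of all genes). It lay at 8.44, 8.54 and 8.54 in the Foxo arrays and at 8.56, 8.46 and 8.42 in the Mnt arrays, against 8.72, 8.77 and 8.83 in the controls. Its 6 overexpression arrays were all lower than the controls by at least 0.15 (-0.28 ± 0.06, SE, limma adjusted p = 0.610).

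In the Myc, Max and Mnt network Max, the partner that Myc and Mnt share, had a lower mean in both groups. It lay at 8.77, 8.72 and 8.84 in the Foxo arrays and at 8.86, 8.67 and 8.61 in the Mnt arrays, against 8.90, 8.89 and 9 in the controls. The lowest control lay 0.03 above the highest overexpression array, and the difference was -0.19 ± 0.07 (SE, limma adjusted p = 0.610). Of the 8 measured genes of this list, 6 were lower, where 59.2% of all genes were. Mnt and Max were the 2 with an unadjusted p under 0.05. Myc itself was not measured.

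Genes of the ribosome itself were counted apart from those that build it. Of 40 measured cytosolic ribosomal protein genes 21 were lower and 19 higher, with a median of 0 and 2 genes at an unadjusted p under 0.05. Many other genes of that list, among them RpS6, RpL4 and RpS3, had no probe set assigned to the gene alone. They were not measured, so this median leaves them out. Among 71 mitochondrial ribosomal protein genes 49 were lower, where 59.2% of all genes were, and the median was -0.08. Of these 9 lower and 2 higher genes had an unadjusted p under 0.05 (15.5%), against 6.94% of all genes. Wholly below the controls lay 6 of the 71, as did 2.14% of all genes, among them mRpS14 (-0.28 ± 0.09, SE) and mRpL47 (-0.19 ± 0.06). The second probe set of mRpL47 gave -0.28 ± 0.07 and was also wholly below the controls. The mean of this list overlapped between groups, at 9.05, 9.13 and 9 in Foxo muscle and 9.12, 9.11 and 8.98 in Mnt muscle, against 9.06, 9.13 and 9.18 in the controls. With the testis score in the fit 40 of the 71 were lower. Of 30 tRNA synthetases 16 were lower. An unadjusted p under 0.05 was found for 2 lower and 2 higher members (13.3%, against 6.94% of all genes). The lower ones were LeuRS (-0.21) and GlyRS (-0.14), and the higher ones PheRS-m (0.26) and TyrRS-m (0.24). Apart from TyrRS-m they are named after their values were seen. Among 45 translation factors the median was 0, and eIF1, which helps select the start codon, was the member of lowest p (-0.20 ± 0.06).

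The insulin, TOR and FOXO list holds foxo itself, the gene the Foxo transgene carries. Of its 17 measured genes 11 were higher, where 40.8% of all genes were. An unadjusted p under 0.05 was found for 4 of the 17 (23.5%), against 6.94% of all genes. ImpL2, a secreted insulin-binding protein, had -0.74 ± 0.12 in Foxo and -0.15 ± 0.12 in Mnt (SE). Sesn, a stress-induced inhibitor of TOR complex 1 and a FOXO target, had 0.40 ± 0.11 in Foxo and 0.12 ± 0.11 in Mnt. Akt and S6k, kinases of insulin and TOR signalling, were 0.25 and 0.14 higher over both groups. The differences in these 4 genes were larger in Foxo, but none of their Foxo minus Mnt tests passed (limma adjusted p = 0.147 for ImpL2, 0.332 for Sesn, 0.327 for Akt and 0.365 for S6k). The 8 measured known FOXO targets, Sesn among them, had a median of 0.06 for both groups together, 0 in Foxo and 0.10 in Mnt. Of these, 0 were separated from the controls. Other targets on that list, among them Thor, srl and Ilp6, had no probe set assigned to the gene alone. They were not measured, so the median leaves them out. Among 12 muscle-secreted factors 11 were lower, where 59.2% of all genes were, and the median was -0.08. The myokine myoglianin, encoded by myo, had signals of 5.33 to 5.69 in Foxo muscle and 5.53 to 6.00 in Mnt muscle, against 5.48 to 5.80 in the controls.

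Shares of muscle structure and energy genes at an unadjusted p under 0.05 lay on both sides of the 6.94% of all genes. They were 7.14% of 28 sarcomere, 22.2% of 9 calcium handling and 14.3% of 14 glycolysis genes. For the citric acid cycle and mitochondrial import lists they were 12.5% of 16 and 11.8% of 17 genes. Lower shares were 4.76% of 21 fatty acid oxidation, 3.12% of 32 complex I and 2.38% of 42 complex III to V genes. Of 28 sarcomere genes 20 were higher, where 40.8% of all genes were, with a median of 0.08. Besides Strn-Mlck, the thick filament protein gene fln had an unadjusted p under 0.05 (0.37 ± 0.15, SE) with overlapping groups. Respiratory complex I genes had a median of -0.02 and those of complexes III to V a median of 0. ND-B8, a complex I subunit, had -1.24 ± 0.18 in Foxo and -0.08 ± 0.18 in Mnt, and its Foxo minus Mnt test did not pass (limma adjusted p = 0.0709). SdhB, the iron-sulfur subunit of succinate dehydrogenase, was lower by a like amount in each (-0.14 in Foxo and -0.15 in Mnt) and wholly below the controls. Pgi, the glycolytic phosphoglucose isomerase, was 0.28 lower over both groups, with -0.42 ± 0.08 in Foxo and -0.14 ± 0.08 in Mnt. Its groups overlapped with the controls, and its Foxo minus Mnt test did not pass (limma adjusted p = 0.22). Tom20, a mitochondrial import receptor, had -0.05 in Foxo and -0.30 in Mnt.

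Lists of protein turnover, stress and defence had medians close to 0, apart from the immune list. Over all genes 40.8% were higher and 59.2% lower, with a median of -0.03. Of 40 proteasome genes 32 were higher with a median of 0.04, and 0 had an unadjusted p under 0.05. Of 44 glutathione S-transferase and redox genes 31 were higher with a median of 0.04, and 7 had an unadjusted p under 0.05, 4 higher and 3 lower (15.9%, against 6.94% of all genes). Of 27 immune genes 21 were lower with a median of -0.13. PGRP-SB1, a peptidoglycan recognition protein, had -0.30 ± 0.14 in Foxo and -0.68 ± 0.14 in Mnt. The cytochrome P450 list (83 genes) and the autophagy and lysosome list (57 genes) had medians of 0.02 and 0.01. Signs of medians this close to 0 depend on scaling: with each array centred on its median those of the sarcomere, proteasome, glutathione and FOXO target lists became 0, -0.05, -0.04 and -0.02.

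Marker lists of other tissues varied in size and direction. The testis markers had a median difference of 2.11 in Foxo and 0.35 in Mnt. Of these 15 markers 14 were higher in both groups, as were 25.7% of all genes, and 0 had an unadjusted p under 0.05. Digestive proteases had 0.56 in Foxo and -0.13 in Mnt, and gut markers 0.21 and -0.16. Fat body markers had -0.15 in Foxo and -0.13 in Mnt, and haemocyte markers -0.14 and -0.01. Accessory gland markers had a median of 1.53 in Foxo and -0.22 in Mnt, and the Foxo value rests on Foxo replicate 3. Their mean signal was 4.10, 3.94 and 9.76 in Foxo muscle, against 5.37, 4.09 and 4.33 in the controls, and over the alternatives the median for both groups together ran from -0.37 to 1.20. All 8 photoreceptor and neuron markers were at or below the control mean, where 59.2% of all genes were lower. Among them inaC, an eye protein kinase, lay wholly below the controls. Its signals were at most 4.45 in the overexpression arrays and 4.56 to 4.64 in the controls.

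**Figure D5:**
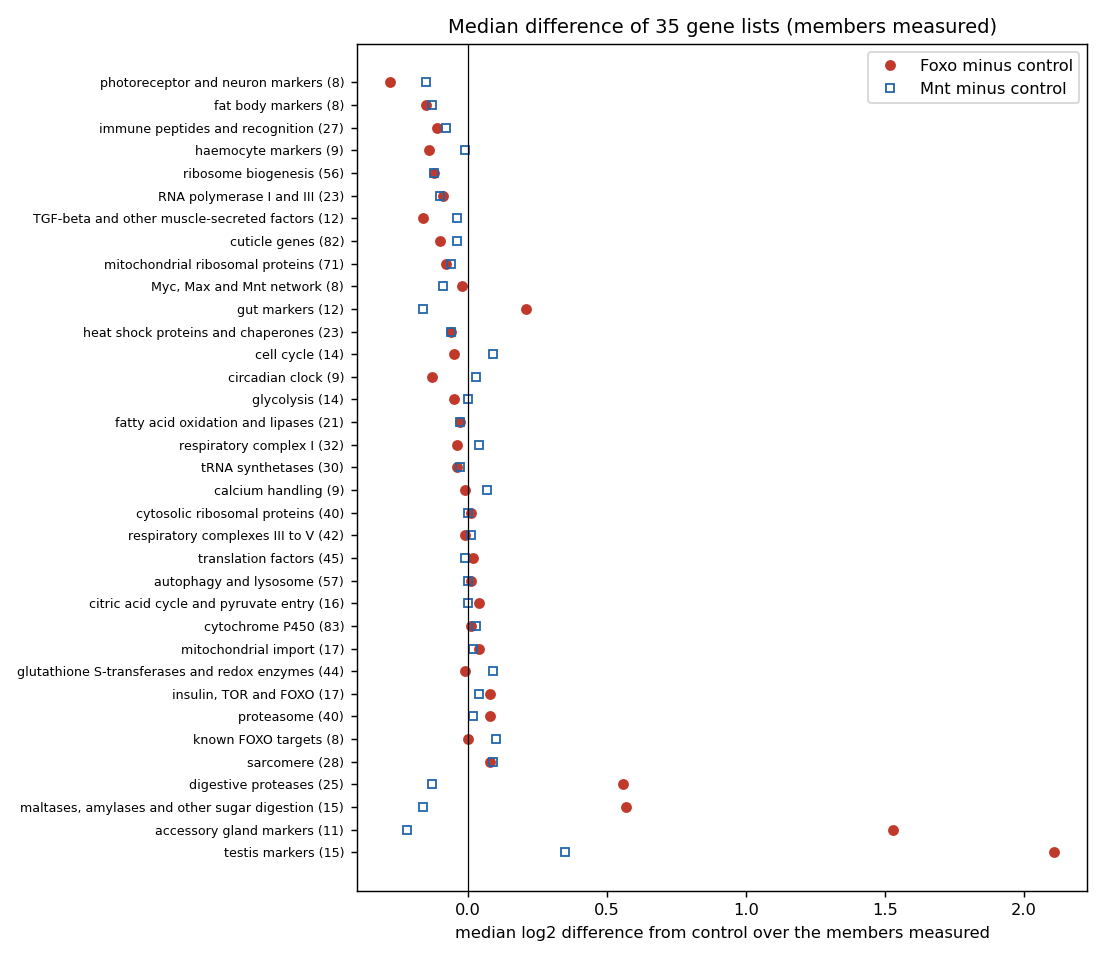
Median log2 difference from control (horizontal axis) of 35 gene lists (rows, with the number of members measured) in the Foxo arrays (filled circles) and the Mnt arrays (open squares), ordered by the median of both groups together. The ribosome biogenesis medians coincide at -0.12, while testis, accessory gland and digestive lists have higher medians in Foxo than in Mnt, that of the accessory gland through 1 Foxo array.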

How the data were processed

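Log2 signals of 18952 probe sets on 9 arrays were deposited, made by the authors with RMA, per the submitters' processing notes. Its version was not stated. Because RMA makes array distributions alike, it hides a shift of most transcripts at once. The 183 control probe sets were left out. The platform annotation gives 1 gene for 13646 probe sets, several for 402 and none listed for 4720, and names were taken only from the first class. Of those with 1 gene, 13543 were found by Entrez identifier in the RefSeq gene table of assembly Release 6 plus ISO1 MT. The probe set of highest mean over the 9 arrays stood for each of 11982 genes.

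Genes were tested with limma 3.58.1 in R 4.3.3 (lmFit, eBayes with an intensity trend) in 1 fit of 3 group means with 6 residual degrees of freedom. The contrast was the mean of Foxo and Mnt minus control, two-sided, with Benjamini-Hochberg adjustment over all genes and a threshold of 0.05. Single contrasts and Foxo minus Mnt came from the same fit. The testis score is the mean signal of 15 testis markers. In simulated data the test recovered 84% of 100 genes changed by 1 and 95% of 100 changed by 2, with 12 false among 191 calls. The noise was drawn independently for each array, and smaller changes were not simulated. The separated genes had a median size of 0.21 and at most 0.78, so recovery at their size is not known.

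The rule for naming genes took foxo and Mnt, then up to 12 called and separated genes per direction, filled to 8 by lowest p, then per list up to 2 called members per direction or else the member of lowest p. Mal-A5, CG5569 and Tom20 were added. Further genes were picked with their values in view. The genes, the 35 lists (947 distinct genes measured) and the rule were chosen with earlier results of these data known, and the lists were given no test of their own. Same-numbered replicates of different groups did not deviate together (1 of 9 pairs had a correlation over 0.1, range -0.70 to 0.11), so the numbers were not taken to pair the samples. Alternatives were other scalings, filters, probe set choices, thresholds, covariates and array sets.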

Additional observations from a re-analysis of the deposited data

Results flagged for a closer look

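Among the genes named by the rule, 3 differed between the overexpression groups in the direct test of Foxo minus Mnt. For lama the difference was -0.69 ± 0.08 (SE, limma adjusted p = 0.0328), with both groups below control. For CycB, a mitotic cyclin, it was -2.35 ± 0.19 (adjusted p = 0.0141), with a log2 difference from control of -2.18 in Foxo and 0.18 in Mnt. For NimC1, a phagocytic receptor of haemocytes, it was -1.07 ± 0.13 (adjusted p = 0.0406), with -0.99 in Foxo and 0.07 in Mnt. The Mnt differences of CycB and NimC1 were smaller than their SEs of 0.19 and 0.13 (limma unadjusted p = 0.375 and 0.592). Nothing is therefore read from their sign.

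In 2 of the named genes a single array stood far from the other 5 overexpression arrays. The foxo signal of 11.95 in Foxo replicate 1 compares with 10.22 in the next highest array, and only the Foxo arrays carry that transgene. Ca-alpha1D, a muscle calcium channel subunit, was at 9.62 in the array labelled Foxo 2, against 9.88 to 9.96 in the other overexpression arrays. Such gaps were looked for in 46 genes, some of them named for separated groups. How often chance gives such a gap was not tested, so nothing is read from the 2 found.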

How the results depend on the processing

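The count of genes called for both groups together was 0 and became 2 in a fit of the 6 arrays as 1 group, 3 with array weights, 3 after a further quantile normalization, 2 without the dimmest 20% or 40% of genes, and 1 without the array labelled Foxo 2 and Mnt replicate 1. All of these were lower except the last, which was Mnt itself. In these settings, apart from the fit as 1 group, which has no single differences, the calls had the same sign in both groups (3, 3, 2, 2 and 1), and the Foxo minus Mnt test also called 1 of them with array weights, 1 after quantile normalization and 1 in the last setting. The 5 settings with 2 or 3 calls hold CG5569 and Mal-A5, and array weights and quantile normalization add lama. With 1 array left out the counts called, higher, lower, of the same sign and with a Foxo minus Mnt difference ran from 0 to 1. The calls were Mnt without Mnt replicate 1 and Noc2 without Foxo replicate 3. Requiring an unadjusted p under 0.05 in both single comparisons gave 117 genes, 23 higher and 94 lower, with 1 that differed between Foxo and Mnt.

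The count at an unadjusted p under 0.05, 831, became 1759 with array weights, 516 without the dimmest 40%, 1474 over every probe set, 544 with the testis score in the fit and 346 without both arrays of lowest testis score, and ran from 359 to 1342 with 1 array left out. Genes wholly below the controls numbered 147 without the dimmest 40%, 495 over every probe set, 616 without both arrays of lowest testis score and 742 without the array labelled Foxo 2 and Mnt replicate 1, and 273 to 957 with 1 array left out. Those wholly above numbered 24 with centred arrays, 274 and 190 without the 2 pairs of arrays, and 73 to 341 with 1 array left out. Fewer arrays separate more easily by construction. For the other changes the cause was not tested.

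With the replicate number as a block (replicate block) the count called was 0, the count at an unadjusted p under 0.05 was 555, and the adjusted p of CG5569 and Mal-A5 was 0.341. None of the 46 genes named by the rule changed sign in the settings run, and genes named after their values were seen were not included. The rule chose many of the 46 for separated groups or lowest p in these same arrays. A separated gene cannot change sign when arrays are left out. Some settings, such as the replicate block, cannot move the difference at all, so nothing is read from the unchanged signs. The precision of every difference from control is limited by its 3 controls.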

Other observations

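The members of smallest p in the remaining lists had differences of varied size. Atg101, a subunit of the complex that starts autophagy, lay at 8.28, 8.40 and 8.46 in Foxo muscle and at 8.47, 8.28 and 8.41 in Mnt muscle, against 8.6, 8.58 and 8.5 in the controls, a separated difference of -0.17 ± 0.06 (SE). Acox57D-d, an acyl-CoA oxidase of peroxisomes, was also wholly below the controls (-0.22 ± 0.08), as was Cpr5C, a cuticle protein gene (-0.24 ± 0.07). Apoltp, a lipid transfer particle protein of the fat body, had -0.22 ± 0.08 with overlapping groups, and the acidic ribosomal protein relative RpLP0-like had -0.20 ± 0.08. Each of these 5 genes had a limma adjusted p of 0.610.

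Several P450 and redox genes had larger differences in the Foxo arrays, and apart from Cyp4d21 they are named after their values were seen. Cyp4p2 had 1.56 in Foxo and -0.04 in Mnt, and the peroxiredoxin gene Prx6c had 2.53 in Foxo and -0.10 in Mnt. Cyp4d21 had the opposite sign, with -1.10 in Foxo and -0.11 in Mnt. COX5BL, a relative of a cytochrome oxidase subunit, had nearly equal differences of 0.75 and 0.76 in Foxo and Mnt but overlapped with the controls. Jon25Bi, a gut protease, had 0.97 in Foxo and 0.12 in Mnt, and the proteasome subunit relative Rpn12R had 0.85 in Foxo and 0.28 in Mnt. The clock gene cyc, the testis gene twe and the accessory gland gene Acp95EF had differences over both groups of -0.11, 0.25 and -0.19, with unadjusted p of 0.113, 0.0810 and 0.230.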
